A study of Mus musculus with 6 samples.

Results

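Insulin receptor signalling was described here by 10 genes, namely the receptor gene Insr, the substrate genes Irs1 and Irs2, the phosphoinositide 3-kinase (PI3K) subunit gene Pik3r1, the kinase genes Akt1 and Akt2, the transcription factor gene Foxo1 and the inhibitor genes Socs3, Grb10 and Ptpn1. They were found by symbol in the deposited table of 23622 mouse genes, and all 10 were present. Messenger RNA was sequenced from 6 primary cultures of bone progenitors, grown from marrow of C57BL/6 mice of 2 weeks and kept untreated until the third generation. By the labels 3 cultures are wild type, the controls, and the other 3 carry Ift140-/- (cko) and are named cKO below; no other allele or agent is given for either group. Ift140 encodes a subunit of the intraflagellar transport A complex of the primary cilium. The sources used here give no Cre driver, no deleted exon and no number of animals per culture, and where the series speaks of biological replicates it does not say whether they came from separate mice. The title of the series ties osteoblast Ift140 to insulin sensitivity, and the question followed here is whether the insulin response machinery of the progenitors themselves differs.

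As background, insulin binds a receptor tyrosine kinase, which phosphorylates itself and the substrate proteins Irs1 and Irs2. These recruit PI3K through its regulatory subunit, and the lipid that PI3K makes brings Akt to the membrane, where it is activated. Akt phosphorylates many proteins, among them Foxo1, which then leaves the nucleus and no longer drives its target genes. Socs3, Grb10 and Ptpn1 act as brakes on the receptor or on its substrates. In mice, insulin signalling in osteoblasts is known to act on bone formation and on osteocalcin. Most of this control runs through phosphorylation, which messenger RNA levels do not show.

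The deposited unit is FPKM, in which the reads of a gene are divided by its length and by the library's total. Those totals were 17180101 to 28283414 reads, and cKO replicate 4 was the deepest library. Ift140 had a mean of 2.97 ± 0.194 FPKM in the control group against 1.79 ± 0.0951 FPKM in cKO (SD, n = 3), with a log2 fold change of -0.51 (SE 0.07, limma adjusted p = 0.0138), so the labelled groups separated on the targeted gene but the transcript was not absent. The groups also separated on sex-linked genes. Xist ranged from 0.0443 to 0.119 FPKM in controls, against 36.7 to 40.3 FPKM in cKO, and of the Y-linked genes Eif2s3y, Kdm5d and Uty were listed at 0 in every cKO library. The genotype and this sex-linked pattern cannot be told apart in any comparison below, although none of the 10 genes lies on X or Y.

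Markers of several cell types were measured to check the label of bone progenitors. Summed over 9 osteoblast markers the level was 3230 to 3620 FPKM in controls and 2710 to 3960 FPKM in cKO, most of it from the collagen gene Col1a1 (3029 ± 140 and 2623 ± 600 FPKM), and the osteocyte marker Dmp1 was at 0.144 to 0.386 FPKM. Of the 8 tested, 2 rose and none fell (limma). These were the osteocalcin genes Bglap (0.848 ± 0.504 to 3.06 ± 0.787 FPKM, adjusted p = 0.0327) and Bglap2 (1.11 ± 0.335 to 5.96 ± 2.35 FPKM, adjusted p = 0.0153), near-identical copies that can share reads. Bglap rested on 4 to 17 reads in controls and 26 to 69 in cKO, and passed in 7 of 16 alternative fits. Bglap2 rested on 7 to 14 reads in controls and 34 to 114 in cKO, and passed in 13 of 16. The 8 stromal progenitor markers summed to 299 to 429 FPKM in controls and 367 to 471 FPKM in cKO. Of the 7 tested, Kitl, the ligand of the receptor Kit, rose from 5.76 ± 1.06 to 13.2 ± 2.83 FPKM (limma adjusted p = 0.0184), and Prrx1, a transcription factor of limb mesenchyme, fell from 24.0 ± 1.51 to 18.7 ± 0.824 FPKM (adjusted p = 0.0313). The 9 macrophage markers summed to 1640 to 1820 FPKM in controls and 1820 to 2530 FPKM in cKO, so both groups also held macrophage RNA. Most of this sum came from Lyz2, with means of 1314 FPKM in controls and 1552 FPKM in cKO. The 7 granulocyte markers summed to 4.73 to 32.3 FPKM in controls and 67.8 to 205 FPKM in cKO. S100a9 (means of 11.8 and 74.3 FPKM) and S100a8 (5.48 and 35.8 FPKM) were the highest of them. None of the 4 tested passed (limma), and Ly6g, Elane and Mpo lay below a mean of 0.5 FPKM. The 8 adipocyte markers summed to 195 to 242 FPKM in controls and 382 to 402 FPKM in cKO, most of it from Cebpa and Lpl. Cebpa had means of 88.5 and 221.5 FPKM, and Lpl of 106.2 and 149.0 FPKM. With Adipoq (0.196 and 1.88 FPKM) they were the 3 of 5 tested that rose (limma). Of all tested genes 5.04% were called higher. Pparg (15.97 and 16.21 FPKM) and Fabp4 (3.40 and 4.56 FPKM) did not pass. Plin1, Cidec and Lep lay below a mean of 0.5 FPKM and were not tested. Sums of endothelial markers were 17.2 to 23.2 and 12.8 to 15.7 FPKM, those of lymphocyte markers 0.0922 to 0.297 and 0.283 to 0.642 FPKM, those of erythroid markers 0.157 to 0.242 and 0.189 to 0.342 FPKM and those of skeletal muscle markers 3.18 to 5.66 and 3.33 to 3.64 FPKM. No marker that the table lists was at 0 in every library. In such bulk cultures fewer cells of a type and less RNA per cell cannot be told apart, and the part of these cell types in the results below was not tested.

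All 10 genes were expressed in every library, and their order by FPKM, which is per length, ran from Akt1 down to Insr. Akt1 had a mean of 134.9 FPKM over the 6 libraries and stood above every other member in all of them. Socs3 (47.9 FPKM) and Grb10 (41.7 FPKM) followed, and their order differed between libraries, with Socs3 above Grb10 in 3 of 6. Akt2 (24.9 FPKM), Ptpn1 (24.3 FPKM) and Irs2 (23.9 FPKM) lay together, with neighbours in that order changing place between libraries. Irs1 (17.6 FPKM) was below Irs2 in 5 of 6 libraries. Pik3r1 (10.5 FPKM), Foxo1 (6.68 FPKM) and Insr (3.91 FPKM) came last, each above the next in 6 of 6 libraries. Insr rested on 872 to 1482 reads per library.

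**Figure D1:**
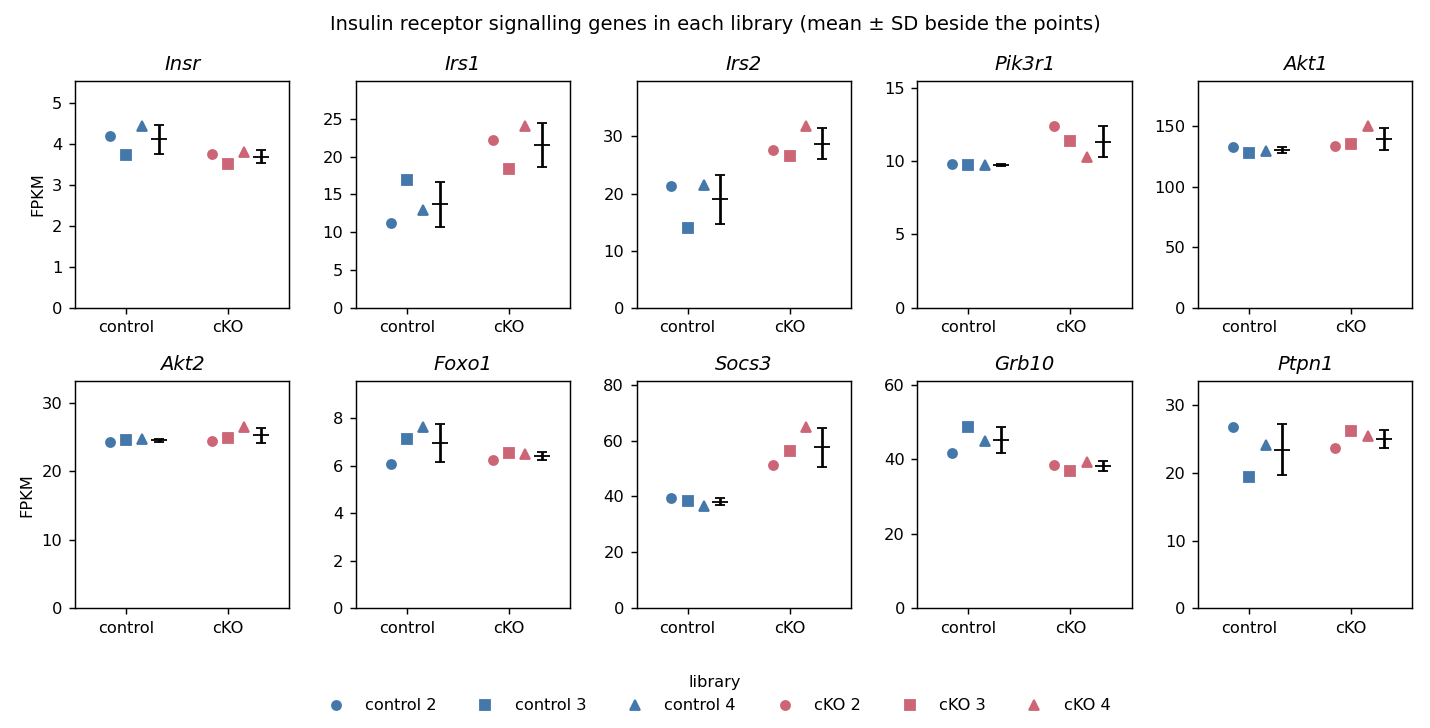
FPKM of each gene (y axes from 0, 1 panel per gene) in the 3 control and 3 cKO libraries, 1 point per library, with the mean and SD of each group beside the points. Socs3, Irs1 and Irs2 lie higher in all 3 cKO libraries than in any control, Grb10 lies lower, and Insr, Akt2, Foxo1 and Ptpn1 overlap.

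Between the groups 1 of the 10 genes passed the test. Socs3 rose, and none fell (limma, Benjamini-Hochberg adjusted p under 0.05). Of the 13326 genes tested, whose mean reached 0.5 FPKM, 5.04% were called higher, 2.57% lower and 7.61% in either direction, so 1 of 10 is near the background. An unadjusted p under 0.05 was found for 5 of the 10, against 3841 of the 13326 tested. Voom on recovered reads, described below, called 3 higher and 0 lower, where it called 7.05% of all genes higher and 11% in either direction. In 6 of the 10, namely Socs3, Irs1, Irs2, Grb10, Pik3r1 and Akt1, the control and cKO values did not overlap, against 35.7% of all tested genes. The median log2 fold change was 0.10 over the 10 genes and -0.00108 over all tested genes. With 3 libraries a group, the 2-sided exact permutation p of a single gene cannot go below 0.1, which these 6 reached.

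The receptor gene Insr (ENSMUSG00000005534) lies on chromosome 8 from 3122061 to 3279617 on the minus strand (GRCm38), where GENCODE vM21 models hold up to 21 exons. It was at 4.19, 3.73 and 4.43 FPKM in control libraries 2, 3 and 4 and at 3.75, 3.52 and 3.81 FPKM in cKO 2, 3 and 4. The groups overlapped, since control 3 was below 2 of the cKO libraries. The means of 4.12 ± 0.357 and 3.69 ± 0.157 FPKM (SD, n = 3) gave a log2 fold change of -0.12 (95% interval -0.30 to 0.05, limma adjusted p = 0.313). A gene-wide FPKM does not separate the A and B isoforms of the receptor, which differ by a small exon. The related receptor gene Igf1r was at 9.26 ± 0.9998 and 9.36 ± 0.683 FPKM (log2 fold change 0.02, 95% interval -0.20 to 0.23, adjusted p = 0.923).

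Set against Igf1r in the same library, Insr was lower in all 3 cKO cultures. The ratio of Insr to Igf1r was 0.463, 0.445 and 0.428 in controls 2, 3 and 4 and 0.384, 0.410 and 0.391 in the cKO libraries. The groups did not overlap, with means of 0.445 ± 0.0173 and 0.395 ± 0.0135, but an exact permutation test gave a 2-sided p = 0.1, the smallest possible, and 0.25 adjusted over 5 ratios. Such a ratio needs no scaling between libraries.

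The substrate genes gave larger differences that did not pass. Irs1 (ENSMUSG00000055980) lies on chromosome 1 from 82233101 to 82291416 on the minus strand and encodes a docking protein best known from muscle and fat. It was at 11.2, 16.9 and 12.97 FPKM in control libraries 2, 3 and 4 and at 22.2, 18.3 and 24.0 FPKM in cKO 2, 3 and 4. All cKO values were above all control values, with control 3 nearest to them. The means of 13.7 ± 2.97 and 21.5 ± 2.90 FPKM (SD, n = 3) differed 1.57-fold, a log2 fold change of 0.62 (SE 0.16, 95% interval 0.24 to 1.005, limma adjusted p = 0.0631). Irs2 (ENSMUSG00000038894), on chromosome 8 from 10984681 to 11008458 on the minus strand, encodes the second widely expressed docking protein and is itself a known target of FOXO factors in liver. It was at 21.4, 14.0 and 21.6 FPKM in controls and at 27.7, 26.6 and 31.8 FPKM in cKO. Here too the groups did not overlap, and control 3 was the lowest library. The means of 19.0 ± 4.31 and 28.7 ± 2.71 FPKM differed 1.51-fold, a log2 fold change of 0.59 (SE 0.17, 95% interval 0.19 to 0.99, adjusted p = 0.0776). Exons of a gene on the other strand overlap those of each, and the strand setting of the counting is not given. The partner of Irs2, 9530052E02Rik, was at 0.0251 to 0.107 FPKM in all 6 libraries, and the partner of Irs1, Gm9747, was not analysed here.

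The calls of the substrates differed between fits. With limma's voom on reads recovered from the FPKM, which called 7.05% of all genes higher and 11% in either direction, both substrates passed beside Socs3, with adjusted p = 0.0334 for Irs1 and adjusted p = 0.0460 for Irs2. Without control replicate 3 both passed as well (adjusted p = 0.0240 and adjusted p = 0.0475), with log2 fold changes of 0.78 for Irs1 and 0.40 for Irs2. Over the 16 alternative fits each passed in 2, and the adjusted p ran from 0.0240 to 0.185 for Irs1 and from 0.0460 to 0.187 for Irs2.

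The 2 substrates varied in opposite directions within the controls. Control 3 had the highest Irs1 and the lowest Irs2 of its group, so its ratio of Irs1 to Irs2 was 1.21 where controls 2 and 4 had 0.521 and 0.601. The cKO ratios of 0.799, 0.688 and 0.755 lay between these, and the ratio did not separate the groups (0.776 ± 0.375 and 0.747 ± 0.056; 2-sided exact permutation p = 1.0). The sum of both substrates, taken after these values were seen and not tested, was even within the controls. It was 32.6, 31.0 and 34.6 FPKM in control libraries 2, 3 and 4 and 49.9, 44.9 and 55.8 FPKM in cKO 2, 3 and 4, with means of 32.7 ± 1.79 and 50.2 ± 5.42 FPKM. Control 3 also had 4.73 FPKM over the granulocyte markers against 26.6 and 32.3 in the other controls, and 59.7 FPKM of the macrophage gene Adgre1 against 89.6 and 111. It was the highest control for the osteoblast genes Ibsp (92.4 FPKM against 13.2 and 20.1), Sp7 (77.2 against 28.8 and 40.4) and Alpl (195.9 against 90.0 and 100.9), and for the stromal gene Cxcl12 (238.6 FPKM against 91.3 and 104.5). Other markers of these lists differed. The osteoblast genes Bglap2 and Dmp1 were also highest in control 3, but Runx2, Col1a1, Spp1 and Bglap lay between the other controls. Of the stromal genes Eng, Kitl and Lepr were also highest there, Pdgfra lay between, and Pdgfrb, Prrx1 and Thy1 were lowest. The macrophage gene Lyz2 was highest in control 3 (1371 FPKM against 1295 and 1276), and the other macrophage markers were lowest. The part of these in the Irs1 and Irs2 values was not tested.

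**Figure D2:**
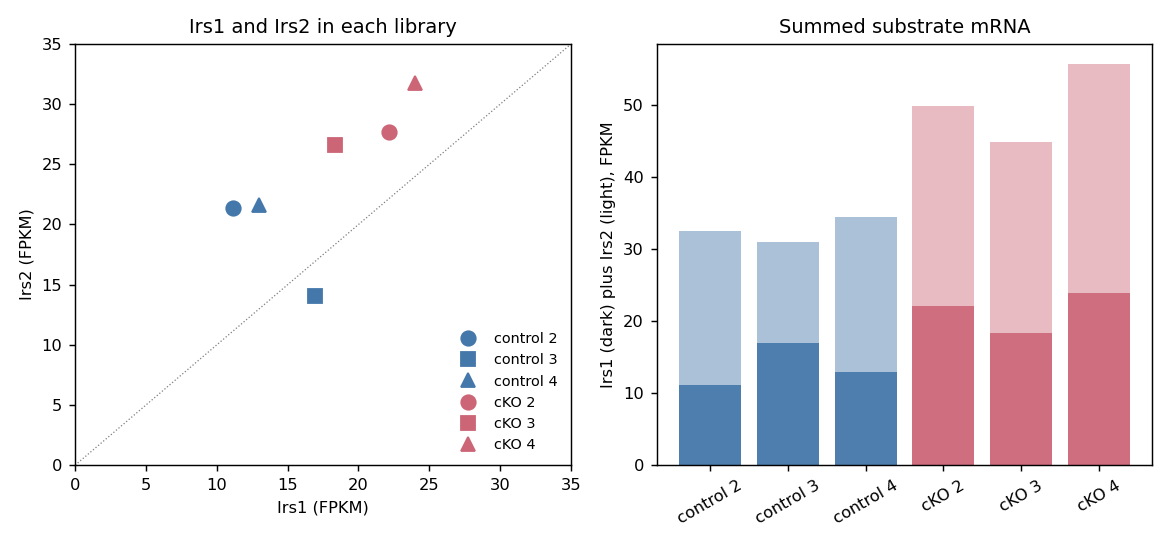
Left, Irs2 against Irs1 in FPKM for each of the 6 libraries, with a dotted line at equal levels. Right, stacked bars of Irs1 (dark) and Irs2 (light) in FPKM for each library. Control 3 lies on the other side of the line from the other libraries, while the summed level is 31.0 to 34.6 FPKM in controls and 44.9 to 55.8 FPKM in cKO.

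Since Irs1 and Irs2 differed in the same direction, the 250 bases before the RefSeq start of each are shown. Capitals mark GC boxes (GGGCGG, either strand) and CCAAT boxes (CCAAT, either strand), the only matches to the 4 motifs searched. The Irs1 window is chr1:82291440-82291689 and the Irs2 window chr8:11008930-11009179, both GRCm38.p6, minus strand, read 5′ to 3′ from RefSeq.
Irs1: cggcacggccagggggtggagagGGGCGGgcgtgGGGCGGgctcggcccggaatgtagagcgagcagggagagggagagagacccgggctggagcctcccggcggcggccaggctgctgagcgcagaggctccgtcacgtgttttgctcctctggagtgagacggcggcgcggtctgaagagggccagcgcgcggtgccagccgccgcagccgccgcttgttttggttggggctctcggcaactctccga
Irs2: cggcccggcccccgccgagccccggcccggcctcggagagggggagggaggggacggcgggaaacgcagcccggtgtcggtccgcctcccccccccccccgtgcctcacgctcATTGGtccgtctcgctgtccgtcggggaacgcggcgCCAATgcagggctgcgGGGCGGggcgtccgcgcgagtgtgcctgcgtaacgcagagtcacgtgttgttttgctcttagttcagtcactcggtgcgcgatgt
Irs1 holds 2 GC boxes, and Irs2 holds 1 GC box and 2 CCAAT boxes. Both are GC-rich, at 72.4% and 72.8%. Among all 32851 such windows of the RefSeq file, 32.7% hold a GC box and 33.8% a CCAAT box, so these are common elements. The motif GTAAACA, which FOXO factors bind, was in neither window on either strand, and in 3.17% of all windows. Among the 15 windows of the 9 genes listed there it was found in 1 of those of Akt1.

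Pik3r1, Akt1 and Akt2 carry the signal from the substrates to the kinase step. Pik3r1 (ENSMUSG00000041417, chromosome 13 from 101680563 to 101768217, minus strand) encodes the regulatory subunit that docks on Irs proteins, in 3 known protein forms that a gene-wide FPKM does not separate. It was at 9.80, 9.72 and 9.70 FPKM in control libraries 2, 3 and 4, the most even control values of the 10 genes, and at 12.4, 11.3 and 10.3 FPKM in cKO 2, 3 and 4. All cKO values were higher, but they were spread, and the log2 fold change of 0.20 did not pass (95% interval 0.02 to 0.37, limma adjusted p = 0.139). The ratio of Pik3r1 to its catalytic partners Pik3ca, Pik3cb and Pik3cd together was 0.467 to 0.604 in controls and 0.516 to 0.601 in cKO and overlapped (2-sided exact permutation p = 0.6).

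Akt1 (ENSMUSG00000001729, chromosome 12 from 112653821 to 112674884, minus strand) encodes the most widely expressed Akt kinase. It was at 133.2, 128.3 and 129.7 FPKM in controls and at 133.3, 135.0 and 149.9 FPKM in cKO. The lowest cKO value was just above the highest control. The log2 fold change was 0.09 (95% interval -0.06 to 0.25, limma adjusted p = 0.395), but -0.11 after a correction for GC content (adjusted p = 0.211), so no direction can be given. Akt2 (ENSMUSG00000004056, chromosome 7 from 27591552 to 27640826, plus strand), the form best known for glucose uptake in muscle and fat, was at 24.3, 24.6 and 24.7 FPKM in controls and at 24.5, 24.8 and 26.5 FPKM in cKO. Its groups overlapped, with a log2 fold change of 0.04 (95% interval -0.09 to 0.17, adjusted p = 0.664), the narrowest interval of the 10 genes, and of -0.03 after the GC correction. Akt1 was 5.22 to 5.48 times as high as Akt2 in controls and 5.43 to 5.66 times in cKO (2-sided exact permutation p = 0.3).

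Foxo1 (ENSMUSG00000044167, chromosome 3 from 52268336 to 52353221, plus strand) encodes the transcription factor that Akt holds out of the nucleus. It was at 6.06, 7.12 and 7.63 FPKM in control libraries 2, 3 and 4 and at 6.23, 6.52 and 6.50 FPKM in cKO. The groups overlapped, since control 2 was the lowest library, and the log2 fold change was -0.09 (95% interval -0.29 to 0.11, limma adjusted p = 0.499). An antisense gene, Gm20402, overlaps its exons and was not analysed here. Foxo3, a second FOXO gene, rose from 9.73 ± 0.362 to 12.5 ± 0.344 FPKM (SD, n = 3; log2 fold change 0.34, SE 0.05, adjusted p = 0.0207). The ratio of Foxo1 to Foxo3 was 0.598, 0.753 and 0.796 in controls and 0.513, 0.513 and 0.509 in cKO. The groups did not overlap (log2 difference -0.47; 2-sided exact permutation p = 0.1, 0.25 adjusted over 5 ratios).

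Among the inhibitors, Socs3 (ENSMUSG00000053113) was the gene that passed. It encodes a protein induced by cytokines through STAT factors, which blocks JAK kinases at cytokine receptors and also binds the insulin receptor and marks Irs proteins for degradation. The gene lies on chromosome 11 from 117966079 to 117970047 on the minus strand. It was at 39.4, 38.4 and 36.7 FPKM in control libraries 2, 3 and 4, from 2296, 2396 and 2206 reads, and at 51.4, 56.3 and 65.0 FPKM in cKO 2, 3 and 4, from 2553, 2939 and 5313 reads. The controls lay close together, and every cKO library was above them, the deepest library highest. The means of 38.2 ± 1.34 and 57.6 ± 6.87 FPKM (SD, n = 3) differed 1.51-fold, a log2 fold change of 0.57 (SE 0.09, 95% interval 0.36 to 0.79, limma adjusted p = 0.0193).

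Socs3 passed in 12 of 16 alternative fits, with adjusted p from 0.00767 to 0.0968. It did not pass without control replicate 4 (adjusted p = 0.0893) or without cKO replicate 3 (adjusted p = 0.0699), at log2 fold changes of 0.55 and 0.59. Its transcript is 58.7% GC, and after the GC correction the log2 fold change was 0.40 (adjusted p = 0.0261). The granulocyte marker S100a8, which like the granulocyte sum was higher in each cKO library than in any control, was at 57.0, 19.5 and 31.0 FPKM in cKO 2, 3 and 4. None of the 4 granulocyte markers tested passed, with limma adjusted p = 0.0574 for S100a8. The part of such cells in the Socs3 values was not tested.

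The 250 bases before a RefSeq start of Socs3, chr11:117969367-117969616 of GRCm38.p6 on the minus strand, are shown because they hold a match to the STAT motif TTCNNNGAA, which reads the same on both strands. Capitals mark this match, TTCTTAGAA, and a GC box.
Socs3: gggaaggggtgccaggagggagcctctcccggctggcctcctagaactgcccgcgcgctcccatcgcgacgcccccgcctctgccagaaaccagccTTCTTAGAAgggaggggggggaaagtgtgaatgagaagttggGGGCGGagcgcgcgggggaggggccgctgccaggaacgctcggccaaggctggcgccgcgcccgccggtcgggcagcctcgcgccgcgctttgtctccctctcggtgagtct
The match begins 154 bases before that start. Other annotated starts of Socs3 lie further upstream. The window lies within the annotated gene, whose 5′ end on the minus strand is at 117970047, so the match is downstream of that end. The motif was found in 7.02% of all 32851 windows and in 2 of the 15 windows of the 9 genes listed. Beside Socs3 it was in a window of Akt2, where it reads TTCGGGGAA.

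Grb10 (ENSMUSG00000020176, chromosome 11 from 11930508 to 12038683, minus strand) encodes an adaptor that binds the activated insulin and IGF1 receptors and dampens them, and in mice it is imprinted, with the maternal copy active in most tissues. It was at 41.7, 48.7 and 44.9 FPKM in control libraries 2, 3 and 4 and at 38.4, 36.8 and 39.4 FPKM in cKO. Every cKO value was below every control, with control 3 highest. The means of 45.1 ± 3.49 and 38.2 ± 1.28 FPKM (SD, n = 3) gave a log2 fold change of -0.23 (SE 0.07, 95% interval -0.40 to -0.06), which did not pass (limma adjusted p = 0.0925, 0.0572 to 0.257 over 16 alternative fits). Ptpn1 (ENSMUSG00000027540, chromosome 2 from 167932057 to 167979385, plus strand) encodes the phosphatase that removes the activating phosphates from the receptor. It was at 26.8, 19.4 and 24.1 FPKM in controls and at 23.6, 26.1 and 25.4 FPKM in cKO. The cKO values lay within the range of the controls, and the log2 fold change was 0.10 (95% interval -0.17 to 0.38, adjusted p = 0.603), or -0.02 without control replicate 3.

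**Figure D3:**
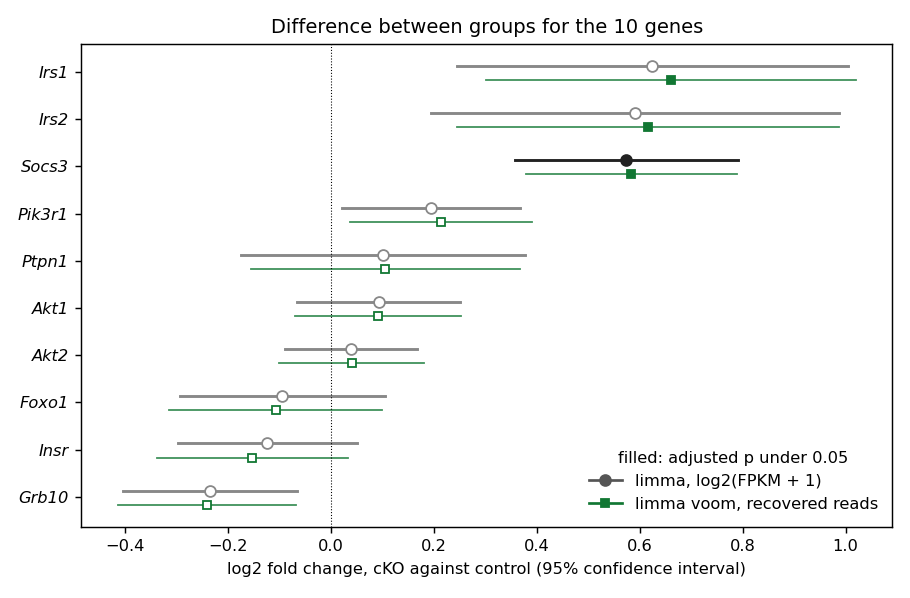
Log2 fold change between cKO and control with its 95% confidence interval for the 10 genes, by limma on log2(FPKM + 1) (circles) and by limma voom on recovered reads (squares). Filled symbols passed at an adjusted p under 0.05: Socs3 in both fits, and Irs1 and Irs2 with voom.

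No library was the highest or the lowest of its group for all 10 genes, though cKO replicate 4, the deepest library, was highest for most. Control 3 was the highest control for Irs1 and Grb10 and the lowest for Insr, Irs2, Akt1 and Ptpn1. Within cKO, replicate 4 was highest for 7 of the 10, namely Insr, Irs1, Irs2, Akt1, Akt2, Socs3 and Grb10, and lowest for Pik3r1. The coefficient of variation in controls ran from 0.555% for Pik3r1 and 0.861% for Akt2 to 21.7% for Irs1 and 22.6% for Irs2.

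**Figure D4:**
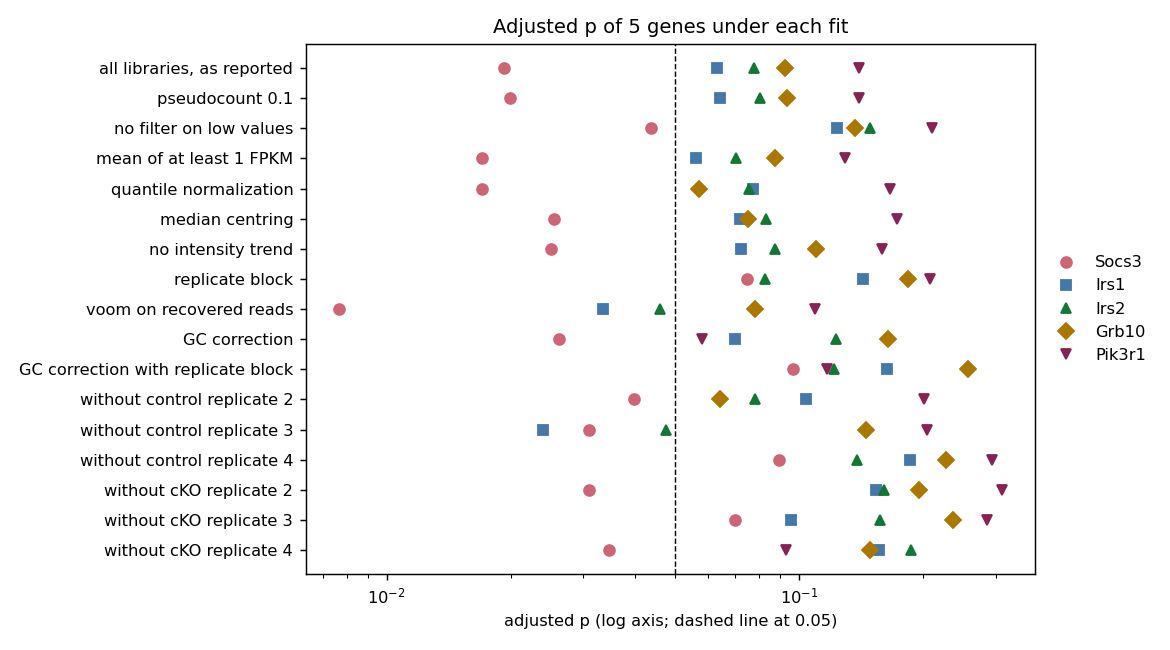
Adjusted p (log axis) of Socs3, Irs1, Irs2, Grb10 and Pik3r1 in the reported fit and in each of 16 alternative fits, with a dashed line at 0.05. Socs3 lies left of the line in 12 of 16 alternatives, Irs1 and Irs2 in 2 each, and Grb10 and Pik3r1 in none.

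The wider pathway was read through 8 lists. Leaving out the 10 genes, they named 142 genes, of which 120 were tested, with 10 higher and 3 lower in cKO (limma, adjusted p under 0.05). This is 10.8%, against 7.61% of all genes. The median log2 fold change was 0.04.

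Of the ligands and related receptors 1 of 4 tested rose. Igf2, a growth factor that binds the IGF1 receptor and one form of the insulin receptor, rose from 31.3 ± 12.6 to 102 ± 33.3 FPKM (SD, n = 3; 3.25-fold, limma adjusted p = 0.0293). Igf1, with 16.8 ± 0.299 FPKM in controls and 18.6 ± 2.50 FPKM in cKO, did not pass (adjusted p = 0.413). Among adaptors and kinases of the Ras branch 1 of 19 rose. This was Map2k2, which encodes a kinase upstream of ERK, from 47.0 ± 3.00 to 63.1 ± 4.23 FPKM (adjusted p = 0.0271).

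Of 5 other PI3K subunit genes none passed by limma over all genes, and 2 had an unadjusted p under 0.05. With voom on recovered reads 1 of the 5, Pik3r2, was called higher (adjusted p = 0.0421). The regulatory subunit genes differed in opposite directions, neither past the test on FPKM. Pik3r2 was at 33.2, 29.1 and 29.5 FPKM in controls and at 36.7, 38.1 and 46.5 FPKM in cKO (adjusted p = 0.0690). It was called in 1 of 16 alternative fits. Its log2 fold change of 0.39 was 0.13 after the GC correction (limma adjusted p = 0.274). Pik3r3 was at 11.4, 17.4 and 11.3 FPKM in controls and at 8.96, 10.1 and 8.95 FPKM in cKO (adjusted p = 0.127). With Pik3r1, the 3 regulatory genes summed to 53.7 ± 2.94 FPKM in controls and 61.1 ± 4.09 FPKM in cKO, a sum taken after the values were seen and not tested.

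Enzymes that turn the lipid and Akt steps on or off held 1 rise among 12 tested genes and no fall. Phlpp1, a phosphatase that acts on Akt itself, was at 7.61, 5.52 and 7.06 FPKM in controls and at 10.6, 11.5 and 12.2 FPKM in cKO. Every cKO library lay above every control, with a 1.70-fold rise (limma adjusted p = 0.0207).

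Among Akt substrates and mTORC1 genes 3 of 19 rose beside 1 fall. Akt1s1, whose product restrains mTORC1 until Akt phosphorylates it, rose from 46.9 ± 3.32 to 62.7 ± 4.94 FPKM (limma adjusted p = 0.0341). Gsk3b, a kinase that Akt inhibits, rose from 15.9 ± 0.423 to 19.7 ± 0.757 FPKM (adjusted p = 0.0296), and Foxo3 rose as given above. Tbc1d1, a brake on glucose transporter traffic, fell from 8.26 ± 0.278 FPKM in controls to 6.25 ± 0.0899 FPKM, by -0.35 on the log2 scale (SE 0.05, limma adjusted p = 0.0171).

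Of 22 further negative regulators of the receptor 1 rose and none fell. Socs1, a relative of Socs3 that interferon induces, was at 4.68, 6.12 and 4.46 FPKM in controls and at 11.5, 10.4 and 14.7 FPKM in cKO. The groups lay far apart, with a 2.40-fold rise (log2 fold change 1.11, SE 0.15, limma adjusted p = 0.0129) that passed in 13 of 16 alternative fits. Their median log2 fold change was 0.13.

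FOXO target genes held no rise and 2 falls among 21 tested, with Insr and Irs2 counted among them. Pdk4, a kinase that holds back pyruvate oxidation, fell from 27.0 ± 3.44 to 17.4 ± 1.26 FPKM (SD, n = 3; log2 fold change -0.60, SE 0.10, limma adjusted p = 0.0222). Fbxo32, a ubiquitin ligase subunit known from muscle wasting, fell from 7.23 ± 0.958 FPKM in controls to 4.57 ± 0.445 FPKM, by -0.56 on the log2 scale (SE 0.11, limma adjusted p = 0.0294). The median over the list was 0.01 on the log2 scale.

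The list of cytokine and STAT genes around Socs3 held 3 rises and no fall among 21 tested, with a median log2 fold change of 0.20. Not all of its genes act upstream of Socs3, since it also holds Pim1, Bcl3, Junb, Fos, Cebpb, Cebpd and Pias3. The rises were in Cebpb, a transcription factor of cytokine responses and fat cells, from 57.1 ± 18.4 to 138 ± 27.1 FPKM (limma adjusted p = 0.0335), in Stat5a, from 5.12 ± 0.444 to 6.92 ± 0.203 FPKM (adjusted p = 0.0297), and in Il11ra1, a receptor subunit, from 7.54 ± 0.473 to 9.69 ± 0.496 FPKM (adjusted p = 0.0374). Stat3, the main STAT upstream of Socs3, was at 22.8 ± 1.26 and 21.3 ± 0.919 FPKM (adjusted p = 0.359), and Il6st, the shared receptor chain of the IL-6 family, at 21.6 ± 1.30 and 19.1 ± 0.109 FPKM (adjusted p = 0.127). Near-identical copies of Il11ra1 can share its reads.

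**Figure D5:**
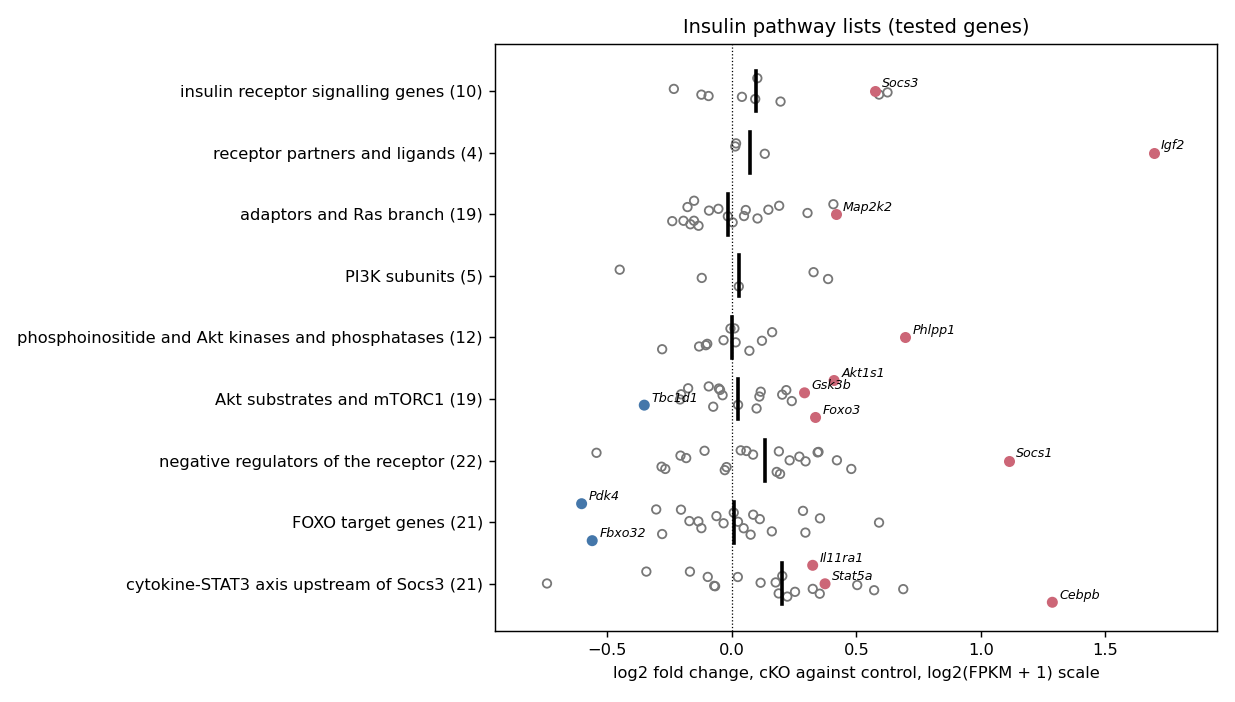
Log2 fold change of every tested gene in each list (number tested in brackets), with a bar at the list's median and a dotted line at the median of all tested genes. Filled and named points passed at an adjusted p under 0.05, red for higher and blue for lower in cKO, while open points did not.

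These pathway calls, like those over all genes, depended on the libraries. Without control replicate 4 none of these genes was called higher or lower by limma, where voom with all libraries called 13 higher and 7 lower. Leaving out cKO replicate 3 left 1 higher and none lower, leaving out cKO replicate 4 left 1 of each, and leaving out cKO replicate 2 left 2 higher and none lower. Without control replicate 3 there were 10 higher and 9 lower. Calls over all genes, 672 higher and 342 lower with all libraries, moved as well. They were 44 and 25 without control replicate 4, and 104 and 39 without cKO replicate 3. Without cKO replicate 4 they were 295 and 131, without cKO replicate 2 281 and 102, and without control replicate 3 622 and 369. Over all genes voom called 939 higher and 533 lower, and the GC-corrected fit 407 and 274. After the GC correction Map2k2 (log2 fold change 0.19, limma adjusted p = 0.0838), Akt1s1 (0.18, adjusted p = 0.126), Stat5a (0.23, adjusted p = 0.0855), Cebpb (0.88, adjusted p = 0.0611) and Fbxo32 (-0.49, adjusted p = 0.0525) no longer passed.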

How the data were processed

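Poly-T purified mRNA of 6 cultures was sequenced from NEBNext Ultra libraries, per the labels' protocols. The deposited values are FPKM, 1 column per library. The submitters' processing notes list HTSeq 0.6.0 and DESeq2 1.10.1 without saying what each was used for. No aligner, genome build, annotation or strandedness is given in the sources used here. Of 23622 identifiers 99.5% were found in GENCODE vM21 (GRCm38), which gave symbols, positions and GC content.

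Groups came from the labels' titles, which give no batch or date. A mean of 0.5 FPKM or more was required, which 13326 genes reached, and these were tested as log2(FPKM + 1) with limma 3.58.1 in R 4.3.3. This was a moderated 2-sided test with an intensity trend and no covariate, with Benjamini-Hochberg adjustment over all tested genes and a threshold of 0.05. Fold changes are on that scale, which understates those of low genes. Intervals are 95% intervals of limma. Whether libraries came from separate animals is not stated, so p-values measure the spread between these libraries.

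The FPKM of a gene is a whole multiple of what a single read contributes. Whole reads could be computed for 23427 of 23427 genes above 0 (100.0%, tolerance 1e-06), up to a factor shared by all libraries for genes whose length differed from GENCODE. The lengths equalled GENCODE exon unions for 77.7% of genes, all 10 members among them. These reads entered limma's voom as an alternative. The other alternatives were pseudocount, filters, scaling, variance trend, a GC correction (loess, span 0.5), a replicate block and leaving out each library. Deviations of same-numbered libraries from their group means had correlations of -0.039, -0.054 and 0.035 for numbers 2, 3 and 4. With 3 libraries a group these cannot show whether same-numbered libraries were handled together. The labels do not say what the numbers mean, so the block is given as an alternative only.

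On simulated reads with a dispersion of 0.005 (13169 genes, 50 changed at each fold), the limma fit recovered 72% of genes changed 1.5-fold and 80% of those changed 2-fold, but 12% of those changed 1.25-fold. Every simulated gene had this same dispersion. In the controls Irs1 and Irs2 varied more, with coefficients of variation of 21.7% and 22.6%, so these rates do not carry over to them.

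All 10 genes are named, as are Ift140, sex-linked genes and, of each pathway list, up to 4 genes past the threshold or otherwise the 2 with the smallest p. Igf1r, Igf1, Stat3, Il6st, S100a8, Adgre1, Col1a1, Dmp1, Bglap, Bglap2, Kitl, Prrx1, Ibsp, Sp7, Alpl and Cxcl12 were picked after their values were seen, as were the CCAAT and GC box motifs. The other cell type markers named in the text, among them Cebpa, Lpl, Lyz2 and Pdgfrb, were picked likewise. The members and lists were chosen with earlier results of these data known. Ins1, Ins2 and Irs4 were not analysed here, and 2 genes of the list of lipid and Akt enzymes are not reported here and are left out of its counts. Ratios were compared by exact permutation with scipy 1.17.1, and plots made with matplotlib 3.10.9.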

Additional observations from a re-analysis of the deposited data

How the results depend on the processing

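Of 160 values of the 10 genes under 16 alternatives, 147 kept their direction and their side of the threshold, 4 lost and 4 gained the call, and 5 changed sign. The sign changes, none past the threshold, were in Akt1 (-0.1126) and Akt2 (-0.0326) after the GC correction, with and without the replicate block, and in Ptpn1, which ran from -0.0218 to 0.2013 when 1 library was left out. The causes were not tested. With the replicate block the adjusted p of Socs3 was 0.0746, and 0.0968 with the GC correction and the block. Of 256 values of 16 other named genes 94 lost their call, 1 gained it and none changed sign.

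Members called higher went from 1 to 3 with voom on recovered reads, which called 7.05% of all genes higher. They went to 0 with the replicate block and 0 with the GC correction and the block. Leaving out a library gave 0 to 3, and 0 lower each time. Calls over all genes, 672 higher and 342 lower, became 327 and 184 with no filter on low values. They became 42 and 22 with the replicate block, whose numbers the labels do not explain. With the GC correction 407 were higher, and with the GC correction and the block 1 higher and 2 lower. Lower calls were 560 with quantile normalization and 533 with voom. Without 1 library there were 44 to 622 higher and 25 to 369 lower.

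In the other pathway lists the 10 higher became 6 with no filter, 6 after the GC correction, and 0 with the replicate block, alone or with the GC correction. The 3 lower became 5 with a mean of at least 1 FPKM, 5 with quantile normalization, 5 with median centring, 7 with voom, and 0 with the replicate block, alone or with the GC correction. Without 1 library there were 0 to 10 higher and 0 to 9 lower. Quantile normalization moved rises from 66.3% to 52.1% of calls, and median centring to 55.1%. The log2 difference of Irs1 over Irs2 ran from -0.19 to 0.41 without 1 library, and that of Pik3r1 over its partners from -0.01 to 0.17. The others kept their sign, at 0.03 to 0.07 for Akt1 over Akt2, -0.20 to -0.14 for Insr over Igf1r and -0.60 to -0.39 for Foxo1 over Foxo3.

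With 3 libraries a group, small changes were seldom recovered even in simulated data, so Grb10 and Pik3r1 lie where a miss says little.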
